A study of Mus musculus with 2 samples.

Results

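The long noncoding RNAs AW112010, Meg3, H19, Neat1 and Malat1 were taken by symbol from the 27998 genes of the count matrices, which makes 5 of 27998, and they had been picked because of what these libraries show for them. Their levels and ratios are therefore a description, and nothing was tested. Of the 27998 genes, 5909 had a long noncoding biotype in the GENCODE M21 annotation, and 2385 of these had at least 1 count in the cells kept.

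Long noncoding RNAs (lncRNAs) are transcribed and usually spliced and polyadenylated like messenger RNAs, but many act as RNA, often without leaving the nucleus. Malat1 gathers in nuclear speckles, bodies rich in splicing factors, and Neat1 is the scaffold of paraspeckles, which hold RNA-binding proteins and form under stress. Meg3 and H19 are made from the maternal copy of imprinted domains in which Dlk1 and Igf2, growth regulators, are made from the paternal copy. AW112010 is best known from macrophages and T cells, where it is switched on by interferon and microbial signals, and its RNA can be translated from a start other than AUG.

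The cells came from lung organoids of C57BL/6 mice. Alveolar type 2 (AT2) cells, which make surfactant and renew the alveolus, had been sorted from tamoxifen-treated Sftpc-CreERT2;R26RTomato animals, where the surfactant protein C promoter drives an inducible Cre that marks the cells red. They were cultured beside stromal cells, for 2 weeks by the labels, while the study's text gives a later day of isolation. The medium of 1 set of organoids received PBS (control) whereas that of the other received IL-1β, a cytokine released in lung injury. Each condition gave 1 droplet library of the 3′ kit from 10x Genomics, so cells are the only repeats and the organoids of a condition were not separated by animal. The comparison asks how the level of each transcript differs between control and IL-1β organoids in each kind of cell.

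All 5 genes lie on autosomes of the GRCm38 build, with positions and transcripts from GENCODE M21. AW112010 (ENSMUSG00000075010) spans chr19:11047612-11055808 on the minus strand, with 2 transcripts of 625 and 770 bases in 3 exons. Meg3 (ENSMUSG00000021268) spans chr12:109541001-109571726 on the plus strand and has 11 transcripts. H19 (ENSMUSG00000000031) spans chr7:142575529-142578143 on the minus strand and has 7. Neat1 (ENSMUSG00000092274) at chr19:5824708-5845478 and Malat1 (ENSMUSG00000092341) at chr19:5795690-5802672 are neighbours on the minus strand, 22 kb apart. Neat1 has 4 transcripts between 711 and 20771 bases, and the longest of the 4 transcripts of Malat1 has 6983 bases in 1 exon. Meg3 overlaps Gm26906 on the opposite strand, which had 11 UMIs.

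The 3′ kit captures RNA by its poly(A), so in a transcript that carries a poly(A) tail the end is the part that the counts see. The longest run of A within the annotated transcripts was 12 bases in Malat1, 16 in Meg3 and 7 in Neat1. Gene counts do not show whether UMIs came from such runs or from the ends. The last 70 bases of 6 annotated transcripts are given 5′ to 3′ in the sense of the RNA, with the polyadenylation signal AATAAA in capitals where it occurs, because the signal separates the short from the long form of Neat1.
AW112010-201 (chr19:11047617-11047686, minus strand): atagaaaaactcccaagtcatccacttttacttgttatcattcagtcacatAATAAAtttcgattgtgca
Meg3-209 (chr12:109571657-109571726, plus strand): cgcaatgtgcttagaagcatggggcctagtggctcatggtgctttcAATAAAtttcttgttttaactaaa
H19-202 (chr7:142575529-142575598, minus strand): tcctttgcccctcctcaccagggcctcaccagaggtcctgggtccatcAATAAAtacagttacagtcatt
Malat1-201 (chr19:5795690-5795759, minus strand): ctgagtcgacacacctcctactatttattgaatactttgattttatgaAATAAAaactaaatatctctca
Neat1-202 (short form, chr19:5842307-5842376, minus strand): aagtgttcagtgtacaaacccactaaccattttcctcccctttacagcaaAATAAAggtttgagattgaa
Neat1-201 (long form, chr19:5824708-5824777, minus strand): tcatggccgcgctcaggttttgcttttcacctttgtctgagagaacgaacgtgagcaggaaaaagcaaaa
The signal stands 13 to 18 bases before the end in 5 of the 6, among them the short Neat1 transcript of 3004 bases. The end of the long Neat1 transcript, the form that builds paraspeckles, holds no AATAAA and closes in a stretch rich in A. A gene count cannot tell these 2 forms apart, and the Neat1 values that follow do not separate them. How well each form was captured was not measured.

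A start site of AW112010 is shown as well, because this gene had the largest ratios between the libraries among the 5 in AT2-lineage and AT1-like cells. RefSeq (GRCm38.p6) lists 1 promoter window of 250 bases before to 50 after the start for AW112010, 2 for Meg3 and 1 for Malat1. The AW112010 window lies within the gene as GENCODE draws it.
AW112010 promoter (chr19:11050517-11050816, minus strand): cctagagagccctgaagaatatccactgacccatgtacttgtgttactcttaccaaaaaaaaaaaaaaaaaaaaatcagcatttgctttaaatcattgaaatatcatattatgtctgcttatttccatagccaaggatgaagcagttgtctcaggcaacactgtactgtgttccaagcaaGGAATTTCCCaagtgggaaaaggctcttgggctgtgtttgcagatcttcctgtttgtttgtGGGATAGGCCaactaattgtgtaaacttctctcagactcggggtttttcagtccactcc
None of 6 motifs searched on both strands is in these 300 bases as spelled here. That says only that these letters are not in this window, and not that sites of another spelling are absent. They were GAAANNGAA for interferon regulatory factors, TTCNNNGAA for STAT proteins, GGGANNNCC for NF-κB, TGANTCA for AP-1, TATAAA for the TATA box and ACGTG for hypoxia-inducible factors. GGGANNNCC is not the only spelling of NF-κB sites, so its absence does not mean that the window holds none of them. The capitals mark 2 matches to a spelling with 1 more N in the spacer, which was searched after the window had been seen. They read GGGAAATTCC on the minus strand of the promoter, 70 bases before the start, and GGGATAGGCC, 9 bases before it. Matches to this longer form are common and occur in 20.7% of the 32851 RefSeq windows, against 18.6% for GGGANNNCC, 8.56% for GAAANNGAA, 8.30% for TTCNNNGAA, 7.81% for TGANTCA, 13.6% for TATAAA and 19.6% for ACGTG. Of the other windows, the first of Meg3 held 2 overlapping matches to TATAAA on opposite strands, 25 and 29 bases before the start, the second held GGGANNNCC 2 times, and that of Malat1 held ACGTG 1 time.

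The control library held 2101 barcodes and 33965848 UMIs (unique molecular identifiers, 1 for each captured RNA molecule), and the IL-1β library 3066 barcodes and 41220175 UMIs. The cutoffs of the study left 2081 and 3058 cells, with no cell under 4000 UMIs. Clusters were named here from marker genes, by a rule set after the clusters had been seen. AT2-lineage cells (832 control, 1610 IL-1β) came from cluster E0 of the control library, with 13 control cells of E1 and 4 of E2, and from E1, led by Slc26a4, Cxcl5 and Cd14, E2, led by Gstm1 and Spink5, and E4, led by Dmkn, Cxcl5 and Ly6d, of the IL-1β library. A class score was the mean log2 ratio of its markers over all other epithelial cells. AT2-lineage took the higher of the score of 10 AT2 markers and that of 5 markers of the study's primed AT2 state. In E1, E2 and E4 the primed score was the one taken, at 0.13, 0.26 and 0.60. For E1 the DATP-like score came close, at 0.06. AT1-like cells (257 and 430), flat cells of gas exchange, came from E6 and E5, DATP-like cells (32 and 493), damage-associated transient progenitors, from E10 and E3, and stromal cells (780 and 475) from S3, S9 and S11 of the control and S4 of the IL-1β library. The 10 AT2 markers summed to 131749 and 103681 counts per 1000000 UMIs (CPM) in AT2-lineage cells and still to 80253 in the IL-1β DATP-like cells, whose 7 DATP markers summed to 2287, against 943 in IL-1β AT2-lineage and 2119 in IL-1β AT1-like cells. The 12 AT1 markers summed to 21912 and 12841 in the AT1-like cells of the control and IL-1β libraries. The 3 basal and 4 endothelial markers summed to at most 25.4 in any class, and the doublet caller marked 0.0583% of cells, too few for it to have worked. The libraries shared 11 barcodes. Without those cells the ratios of AW112010, Meg3, Neat1 and Malat1 in each of the 4 classes moved by less than their counting error. So did the H19 ratio in the stroma, the only class in which it was recomputed. The other ratios below were not recomputed without them.

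In UMIs, Malat1 took 3.30% of all counts and came first among the lncRNAs and 2nd among all genes, whereas Neat1, Meg3, AW112010 and H19 ranked 2, 4, 8 and 376 among lncRNAs. These ranks count molecules and are not per base of transcript. In each class the UMIs of a gene were summed over cells and divided by the class total (CPM), with exact 95% intervals in parentheses that cover counting error only. Beside each count of these 5 genes stands the share of all genes with at least 100 UMIs in the class that passed the same 2-fold mark, and since the genes were chosen on these values nothing is read from the contrast. In AT2-lineage cells 2 of the 4 that reached 100 UMIs, AW112010 and Meg3, were at least 2-fold higher in IL-1β (6.62% of 10046 genes) and 0 were 2-fold lower (2.56%). In DATP-like cells the same 2 of 4 were higher (7.73% of 6002 genes) and 0 were lower (7.76%). In AT1-like cells AW112010 alone of 3 was higher (4.14% of 7986 genes) and 0 were lower (2.54%). In stromal cells 0 of 4 were higher (3.61% of 9987 genes) and AW112010 alone was lower (10.2%). The median log2 ratio of all genes in these 4 classes was 0.12, -0.16, -0.00 and -0.32, and taking surfactant, mitochondrial and ribosomal protein genes out of the totals shifted the AT2-lineage median by -0.13.

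**Figure D1:**
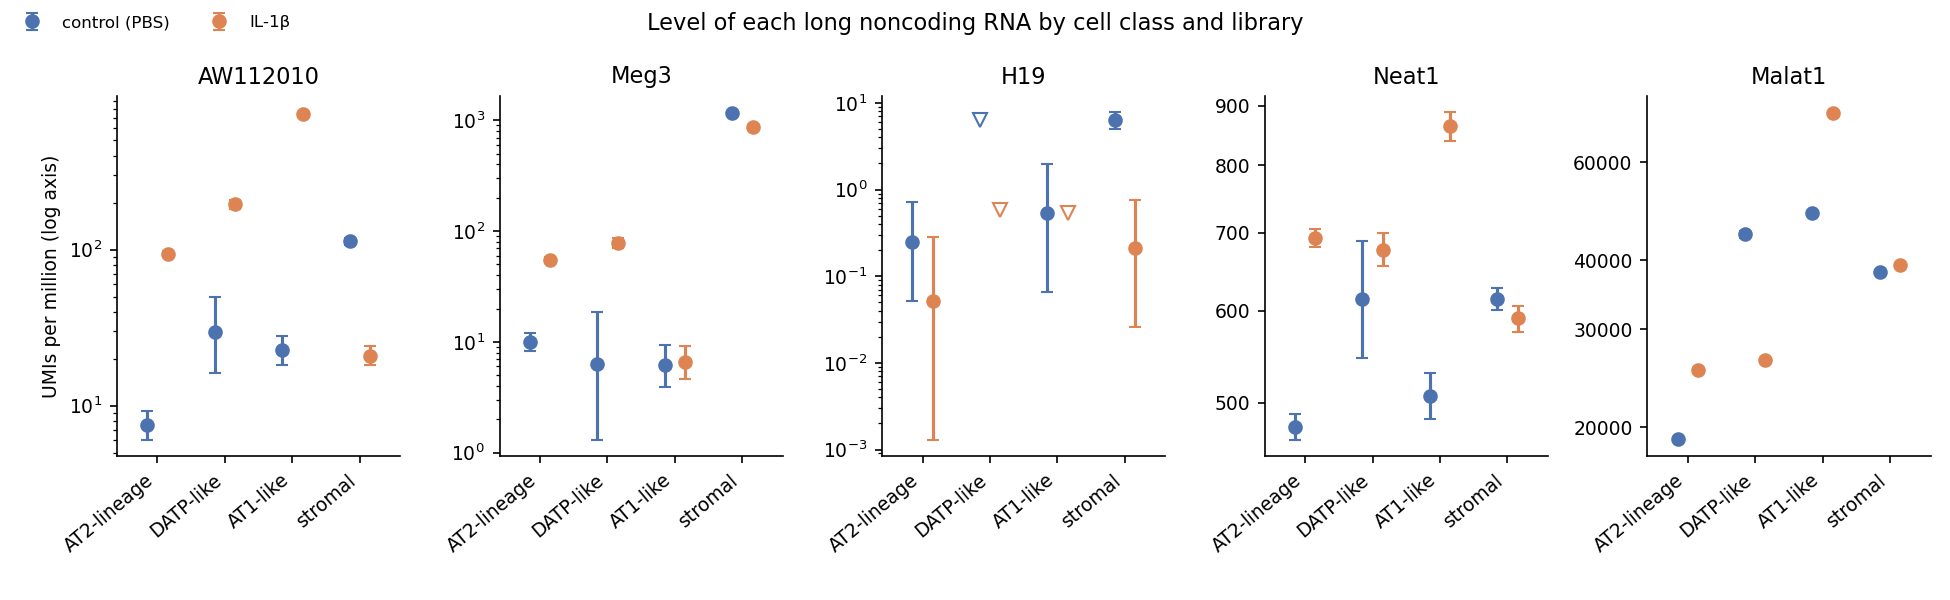
Level in CPM (log axes) of each of the 5 lncRNAs in 4 cell classes of the control (PBS, blue) and IL-1β (orange) libraries; circles are summed counts of 1 library, bars exact Poisson 95% intervals, and open triangles mark classes with no UMI, at the level 3 UMIs would give. AW112010 stood at 22.6 and 734 in control and IL-1β AT1-like cells and at 113 and 20.9 in stromal cells, and Meg3 stood at 1164 and 870.4 in the stroma and at 78.1 or less in the other classes.

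AW112010 was scarce in control epithelium and common in IL-1β epithelium, and it moved the opposite way in the stroma. In AT2-lineage cells its level was 7.53 CPM (6.06 to 9.25) in control and 93.9 (89.6 to 98.3) in IL-1β organoids, a ratio of 12.5 (10.1 to 15.6). The AT1-like cells had the widest gap, from 22.6 CPM (18.1 to 28.0) to 734 (712 to 757), a ratio of 32.4 (26.1 to 40.7). DATP-like cells had 29.5 CPM (16.2 to 49.6) from 14 UMIs in 32 control cells and 195 (183 to 208) in IL-1β cells, a ratio of 6.61 (3.92 to 12.1). That ratio was 3.72 at clustering resolution 2.0, with 17 control cells, and 21.4 with separate clustering, with 109 control cells. In stromal cells the level was 113 CPM (107 to 119) in control and 20.9 (18.1 to 24.1) in IL-1β organoids, a ratio of 0.185 (0.159 to 0.215). Among these classes, in descending order, AT1-like and DATP-like IL-1β cells, control stroma and IL-1β AT2-lineage cells were separate. Control DATP-like, control AT1-like and IL-1β stromal cells had overlapping intervals above the control AT2-lineage cells.

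The share of cells with AW112010 also differed between the libraries in opposite directions in epithelium and stroma. A UMI was found in 7.21% of control and 46.1% (43.7 to 48.6) of IL-1β AT2-lineage cells, and after every cell was thinned to 4000 UMIs in 1.80% and 23.5%. Of AT1-like cells 16% and 89.1% were positive, or 6.23% and 71.2% after thinning. Of stromal cells 50.8% and 30.1% were positive, or 27.8% and 7.79% after thinning. Strongly positive cells, set at 5 or more UMIs after the values were seen, made up 228 of 430 IL-1β AT1-like cells (53.0%) and 5 of 257 control ones (1.95%). Among AT2-lineage cells they were 69 of 1610 (4.29%) in the IL-1β library and 3 of 832 in the control, and those 3 cells carried 31 of the 91 control UMIs, while no cell of E0 held more than 2. The AT2-lineage ratio moved with the cells assigned to that class, and ranged from 7.44 to 22.3 over 12 alternatives.

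Within each class the clusters differed widely. Against the 5.08 CPM of E0, the IL-1β AT2-lineage clusters had 169 (159 to 179) in E1, 80.2 (73.2 to 87.6) in E4 and 35.1 (30.8 to 39.8) in E2, so the level in E1 was 33.2 times (25.6 to 43.8) and that in E2 6.91 times (5.19 to 9.33) that of E0. In the control stroma the transcript sat in S3, fibroblasts led by Dio2, Plac8 and Dlk1, at 155 CPM (147 to 163), against 28.9 (21.1 to 38.7) in S11 and 4.38 (2.10 to 8.06) in S9, whose leading genes Acta2 and Tagln mark contractile cells. The IL-1β stroma was nearly all S4, led by Mmp3, at 21.6 CPM (18.6 to 24.8). That was 0.139 times S3 (0.119 to 0.162), 0.746 times S11 (0.537 to 1.06) and 4.92 times S9 (2.62 to 10.4). The level of S4 was thus lower than that of S3 and higher than that of S9. Different clusters held the stroma of the 2 libraries. A change within a kind of cell and a change in which cells were present therefore cannot be told apart, and neither was tested.

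RNA set free by broken cells can enter droplets of other cells. In the IL-1β stroma AW112010 stood at 22.3% (19.2 to 25.8) of its AT2-lineage level, and 6 AT2 genes, Sftpc among them, stood at 5.44% to 6.86%. AT1-like cells held more of its UMIs, 4106 against 1833, and the stroma stood at 0.0285 times (0.0246 to 0.0329) their level. The AT2 genes do not track RNA set free by AT1-like cells, so the 2 percentages are not a like comparison. Its level in control AT2-lineage cells was 6.66% (5.33 to 8.23) of that in the control stroma. For 6 stromal genes such as Col1a1 and Dcn the range was 1.81% to 7.57%, with a median of 2.51%, so AW112010 stood above the median and near the top. The top was Sparc, at 281 CPM in control AT2-lineage and 3714 in control stromal cells. Control AT1-like cells had 3254 CPM of Sparc, so it is not a gene of the stroma alone. AW112010 is best known from immune cells, and the study lists it among its DATP markers. The study also reports high AW112010 in the AT1-like cells of organoids given IL-1β. The 8 immune markers, Ptprc and Cd68 among them, summed to 10.0 and 38.3 CPM in control and IL-1β AT2-lineage cells. They summed to 27.5 and 36.6 in AT1-like cells and to 13.8 and 20 in stromal cells. In DATP-like cells they summed to 19 and 70.3. Cd68, a lysosomal protein also made outside the immune system, gave 28.6 of the 36.6 CPM in IL-1β AT1-like cells, where Ptprc, Tyrobp, Il2rg, C1qa and Cd3e were at 0. It gave 36.4 of the 38.3 CPM in IL-1β AT2-lineage cells and 69.4 of the 70.3 in IL-1β DATP-like cells. Outside these classes AW112010 stood at 277 CPM (226 to 337) in 17 control cells and at 491 (435 to 553) in 37 unnamed IL-1β cells. Of the 17, 4 formed a cluster with Mrc1 and C1qc among its leading genes and 13 a cluster led by Fabp4. The other groups outside the classes lay between 3.95 and 144 CPM.

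**Figure D2:**
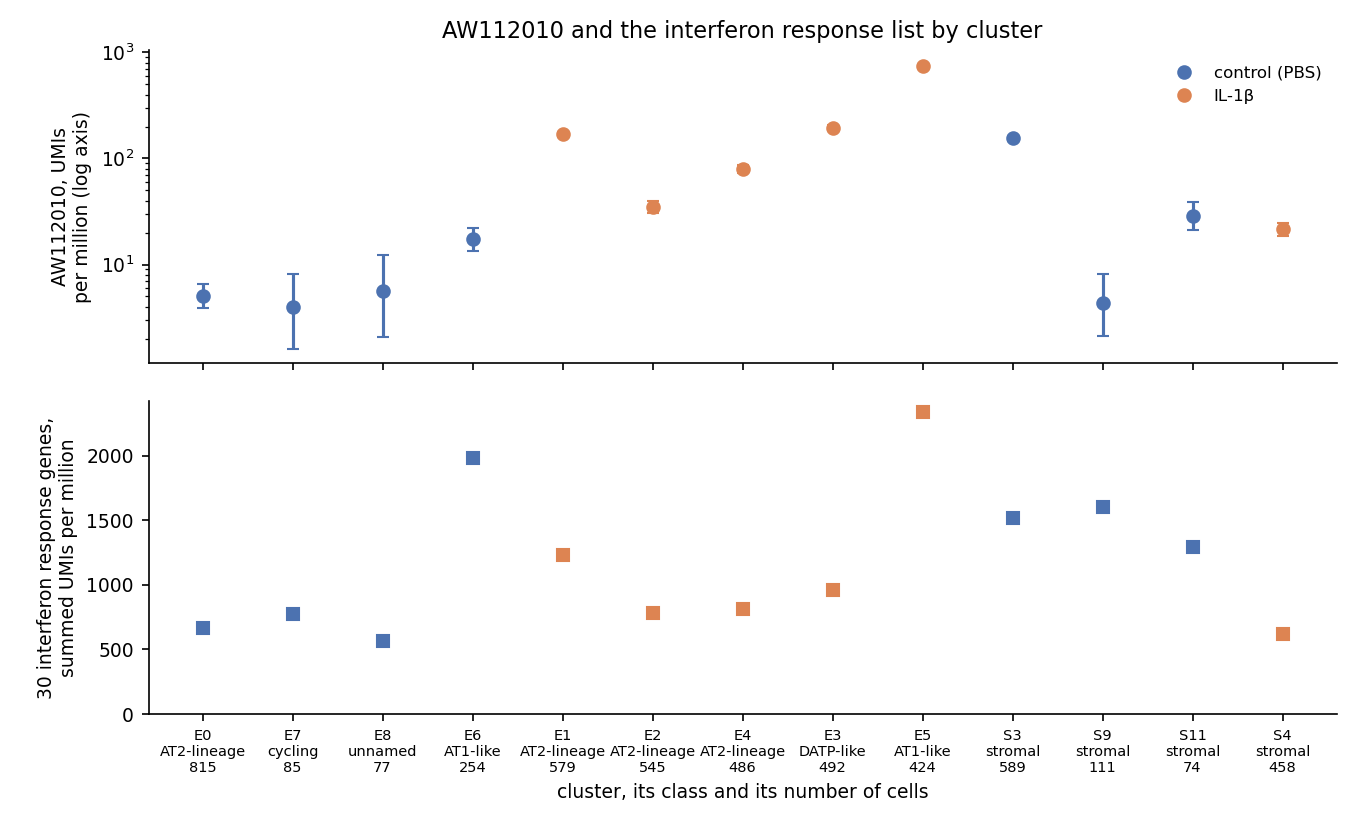
AW112010 (upper panel, CPM, log axis, exact 95% intervals) and the summed level of 30 interferon response genes (lower panel, linear axis) in 13 clusters of at least 50 cells, blue for control and orange for IL-1β; the number of cells stands under each name. AW112010 spanned 3.95 to 155 in control clusters and 21.6 to 745 in IL-1β clusters, and both measures were highest in the IL-1β AT1-like cluster E5.

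The genes that accompany AW112010 in other cells, those of the interferon response, were mostly lower in IL-1β stroma, and some were higher in IL-1β epithelium. Of 30 listed genes, 22 of the 27 with at least 100 UMIs were at least 2-fold lower in IL-1β stroma and 0 were higher. The shares of all genes there were 10.2% and 3.61%. The median log2 ratio of the list was -2.05 against -0.32 for all genes. Isg15, a ubiquitin-like modifier, went from 145 to 25.3 CPM there, a ratio of 0.174 (0.151 to 0.199), whereas Tapbp, which loads MHC class I, had 0.964 (0.902 to 1.03). In AT2-lineage cells 6 of 24 were higher, Ifit2, Rsad2, Cxcl10, Ly6a, Psmb8 and Psmb9 (6.62% of all genes), and 0 were lower (2.56%). Psmb8, a subunit of the immunoproteasome, went from 94.8 to 195 CPM, a ratio of 2.06 (1.92 to 2.2), while Isg15 had 1.01 (0.916 to 1.12) and Bst2, which tethers viruses to the cell surface, 1.17. In AT1-like cells 8 of 23 were higher (4.14% of all genes) and 1, Ifit1, was lower (2.54%). In DATP-like cells 4 of 10 were higher (7.73%) and 1, Ifit3, was lower (7.76%). The summed level of the 30 genes went from 686 to 942 CPM in AT2-lineage cells, from 1963 to 2319 in AT1-like cells and from 1500.3 to 615 in the stroma. In the control stroma the 3 clusters had similar sums, 1518 in S3, 1600.1 in S9 and 1297 in S11, although AW112010 differed between S3 and S9 by a wide margin.

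Targets of NF-κB, the transcription factor downstream of the IL-1 receptor, were higher in the epithelium and, for fewer genes, in the stroma. Of 20 listed genes 14 of 19 were at least 2-fold higher in AT2-lineage cells and 13 of 18 in DATP-like cells. The counts were 12 of 18 in AT1-like cells and 7 of 20 in stromal cells, and 0 were lower in any of the 4 classes. Of all genes, 6.62%, 7.73%, 4.14% and 3.61% were higher in the same order of classes, and 2.56%, 7.76%, 2.54% and 10.2% were lower. In AT1-like cells Lcn2, an iron-withholding protein, went from 503 to 7984 CPM, a ratio of 15.9 (15.2 to 16.6), and in stromal cells the acute-phase gene Saa3 went from 10292 to 60438, a ratio of 5.87 (5.84 to 5.91). Across the 13 clusters the genes whose pattern was most like that of AW112010 were Cd47, a signal that restrains phagocytes (Pearson r = 0.961 on log2 CPM plus 1), Neat1 (0.912), the immunoproteasome subunit Psmb10 (0.888), Lamtor5 (0.888) and Pnrc1 (0.886). These points share 2 libraries and their depth, so the values are descriptions. Over 9 class and library groups Neat1 (0.956) and Cd47 (0.951) led again.

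Meg3 was a stromal transcript in both libraries, and in IL-1β organoids a few AT2-lineage and DATP-like cells also carried it at a high level. In stromal cells it stood at 1164 CPM (1145 to 1182) in control and 870.4 (852 to 889) in IL-1β organoids, a ratio of 0.748 (0.728 to 0.768). A UMI was found in 90.8% of control and 90.1% of IL-1β stromal cells, or 81.8% and 77.7% after thinning. With every cell given equal weight the stromal ratio was 0.968, and with thinned cells 0.979 (0.929 to 1.03), so the size of the difference depended on how cells were weighted. S9 had the highest level, 1578 CPM (1527 to 1631), in 73.9% of its cells, S3 had 1078 in 94.4%, S11 had 806 and S4 of the IL-1β library 795.

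In the epithelium Meg3 was higher in IL-1β AT2-lineage and DATP-like cells and not detectably different in AT1-like cells. AT2-lineage cells had 10.0 CPM (8.31 to 12) in control and 54.5 (51.3 to 57.9) in IL-1β organoids, a ratio of 5.44 (4.50 to 6.62), which was 8.60 without the 5% of cells with the highest doublet scores. DATP-like cells had 3 control UMIs, or 6.33 CPM, and 78.1 CPM (70.7 to 86.2) with IL-1β, a ratio of 12.3 (4.19 to 60.1). AT1-like cells had 6.20 and 6.61 CPM, a ratio of 1.07 (0.617 to 1.88). In descending order the stroma of either library, IL-1β DATP-like and IL-1β AT2-lineage cells were separate, and the other 4 groups overlapped between 6.20 and 10.0 CPM. In AT2-lineage cells 10.5% of control and 9.94% of IL-1β cells had a UMI, at median depths of 13964.5 and 11660.0 UMIs, or 2.28% (1.38 to 3.54) and 5.78% (4.69 to 7.03) after thinning to equal depth. A positive cell held a mean of 1.39 UMIs in control and 6.65 in IL-1β organoids.

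Most epithelial Meg3 of the IL-1β library was held by few cells. Cells with 5 or more Meg3 UMIs, a limit chosen after the values were seen, were 50 of 1610 IL-1β AT2-lineage cells (3.11%, 2.31 to 4.07) and 2 of 832 control ones (0.240%, 0.0291 to 0.866). Those 50 cells held 913 of the 1064 UMIs of their class, and 24 of 493 DATP-like cells (4.87%) held 351 of 401. In AT1-like cells the numbers were 0 of 257 and 2 of 430, and in the stroma 613 of 780 (78.6%) and 349 of 475 (73.5%). By cluster the share was highest in E4 (5.76%, 3.86 to 8.22) and E3 (4.88%), lower in E2 (2.39%) and E1 (1.55%), and 0.472% in the AT1-like E5. Over every way of clustering tried it lay between 0.127% and 0.331% in control and between 3.05% and 4.39% in IL-1β AT2-lineage cells.

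**Figure D3:**
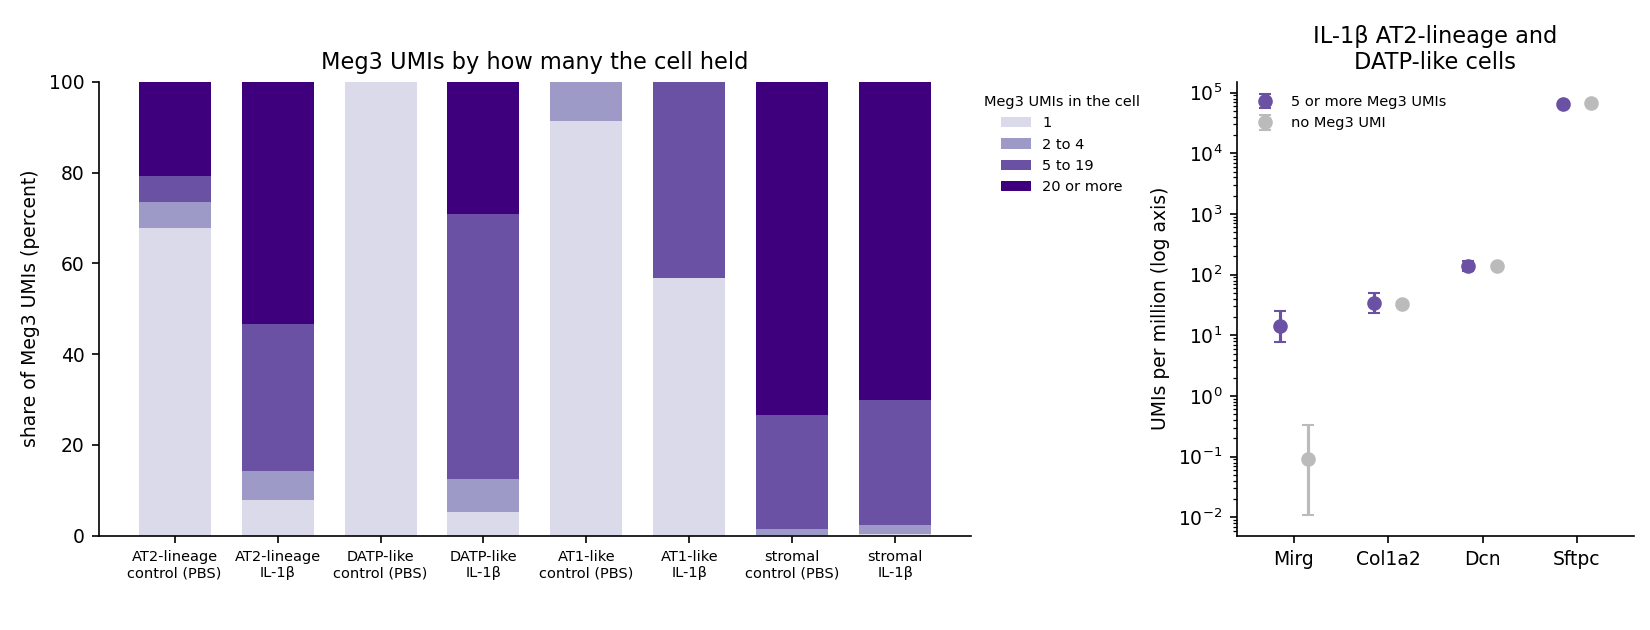
Left, share of all Meg3 UMIs of a class and library (percent) held by cells with 1, 2 to 4, 5 to 19 or 20 or more Meg3 UMIs; right, CPM (log axis, exact 95% intervals) of 4 genes in IL-1β AT2-lineage and DATP-like cells with 5 or more Meg3 UMIs (purple) and with none (grey). Cells with 5 or more UMIs held 85.8% of Meg3 in IL-1β AT2-lineage cells and 26.4% in control ones, and Mirg stood at 14.5 against 0.0910 in the cells without Meg3.

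The 74 such cells of E1 to E4 were compared with the 1887 IL-1β AT2-lineage and DATP-like cells that had no Meg3 UMI. Mirg, a miRNA host transcript further along the same imprinted domain, had 13 UMIs in 11 of the 74 cells and 2 UMIs in the 1887, or 14.5 and 0.0910 CPM, a ratio of 159 (36.0 to 1453). The 142 cells with 1 to 4 Meg3 UMIs had no Mirg UMI. Dlk1, the protein-coding neighbour of Meg3, had 0 and 11 UMIs. The 6 stromal genes used above summed to 503 CPM in the 74 cells and 474 in the 1887, against 14080.3 in IL-1β stromal cells. Col1a2, Dcn and Sparc had ratios of 1.06 (0.715 to 1.52), 1.01 (0.839 to 1.21) and 0.937 (0.810 to 1.08), and Col1a1 was the exception at 2.29 (1.66 to 3.10). Sftpc had 0.935, and median depth was 11284 against 11144 UMIs. Split at the median of their stromal gene UMIs, the lower and upper IL-1β AT2-lineage cells had 51.8 and 57.5 CPM of Meg3, and those of DATP-like cells 107 and 48.1.

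In control AT2-lineage cells Meg3 stood at 0.861% (0.714 to 1.03) of its level in the stroma, below all 6 stromal genes, which stood at 1.81% to 7.57% with a median of 2.51%. In IL-1β AT2-lineage cells it stood at 6.26% (5.87 to 6.67), above their range of 1.71% to 5.55%, and in IL-1β AT1-like cells at 0.760%, below the range again. Nearest to Meg3 in pattern over the 13 clusters were Dse (r = 0.978), an enzyme of dermatan sulfate, the adhesion molecule Vcam1 (0.965), the copper carrier Cp (0.956), the glypican Gpc6 (0.956) and Aprt (0.953), and over 9 class groups Hsd11b1 (0.977). Its other neighbour Rtl1 had 2 UMIs in all.

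H19 was found in few cells, and most of its UMIs were in the control stroma. In that class it had 83 UMIs in 17 of 780 cells, 6.28 CPM (5.00 to 7.78), and in the IL-1β stroma 2 UMIs in 1 of 475 cells, 0.212 CPM (0.0256 to 0.764), a ratio of 0.0337 (0.00401 to 0.126). The epithelium had 5 UMIs in 1284 control cells and 1 UMI in 2583 IL-1β cells. A share of 2.18% of control stromal cells was thus positive, 1.28% after thinning, against 0.389% of control epithelial cells, at median depths of 15638 and 13921.5 UMIs. No UMI was found in 430 IL-1β AT1-like cells or in 493 IL-1β DATP-like cells, which limits the share of cells with a detected UMI to 0.854% and 0.745% and sets no limit on cells that express H19 below detection.

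Within the control stroma 2 cells held 52 of the 83 H19 UMIs, with 32 in a cell of S3 and 20 in a cell of S9. The next cells had 9, 6, 3 and 2, and 11 cells had 1 each. The ratio between the libraries therefore rests on a handful of cells, and the 12 alternatives gave 0.0318 to 0.0714. Igf2, a growth factor made from the other parental copy 72.6 kb away, was found in 39 control stromal cells with 72 UMIs and in 1 IL-1β stromal cell with 1 UMI, or 5.44 and 0.106 CPM. It was present in 4 of the 17 H19-positive cells (23.5%) and in 4.59% of the other control stromal cells. Mrpl23, a mitochondrial ribosomal protein gene on the other side of H19, had 134 and 111 CPM in the stroma. The patterns most like that of H19 were Kctd12 (r = 0.966), Abi3bp (0.945), the Wnt inhibitor Sfrp1 (0.933), Eif3e (0.929) and St13 (0.925), with H19 at 0 in several clusters. All 20 H19 UMIs of S9 and 32 of the 61 of S3 were each in 1 cell, so these values also rest on few cells.

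Other imprinted genes of the stroma were lower in the IL-1β library more often than higher, as were all genes there (10.2% lower and 3.61% higher). Of 17 with at least 100 UMIs, 7 were at least 2-fold lower, Dlk1, Cdkn1c, Plagl1, Grb10, Peg3, Mest and Zim1, and 1 was higher, Peg10, with a median log2 ratio of -0.63 against -0.32 for all genes. Dlk1, a growth regulator and a leading gene of S3, went from 162 to 22 CPM, a ratio of 0.136 (0.117 to 0.157), while Peg10 went from 2.57 to 12.7, a ratio of 4.94 (3.35 to 7.45). Gnas, which encodes the stimulatory G protein subunit, had 0.929 (0.901 to 0.958), and the lncRNA Kcnq1ot1 0.797 (0.738 to 0.861). In AT2-lineage cells 2 of 11 were higher, Cdkn1c and Nnat (6.62% of all genes), and 1 was lower, Grb10 (2.56%). In AT1-like cells 1 of 8, Sgce, was lower (2.54%) and 0 were higher (4.14%). In DATP-like cells 0 of 6 passed either mark (7.73% higher and 7.76% lower of all genes).

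**Figure D4:**
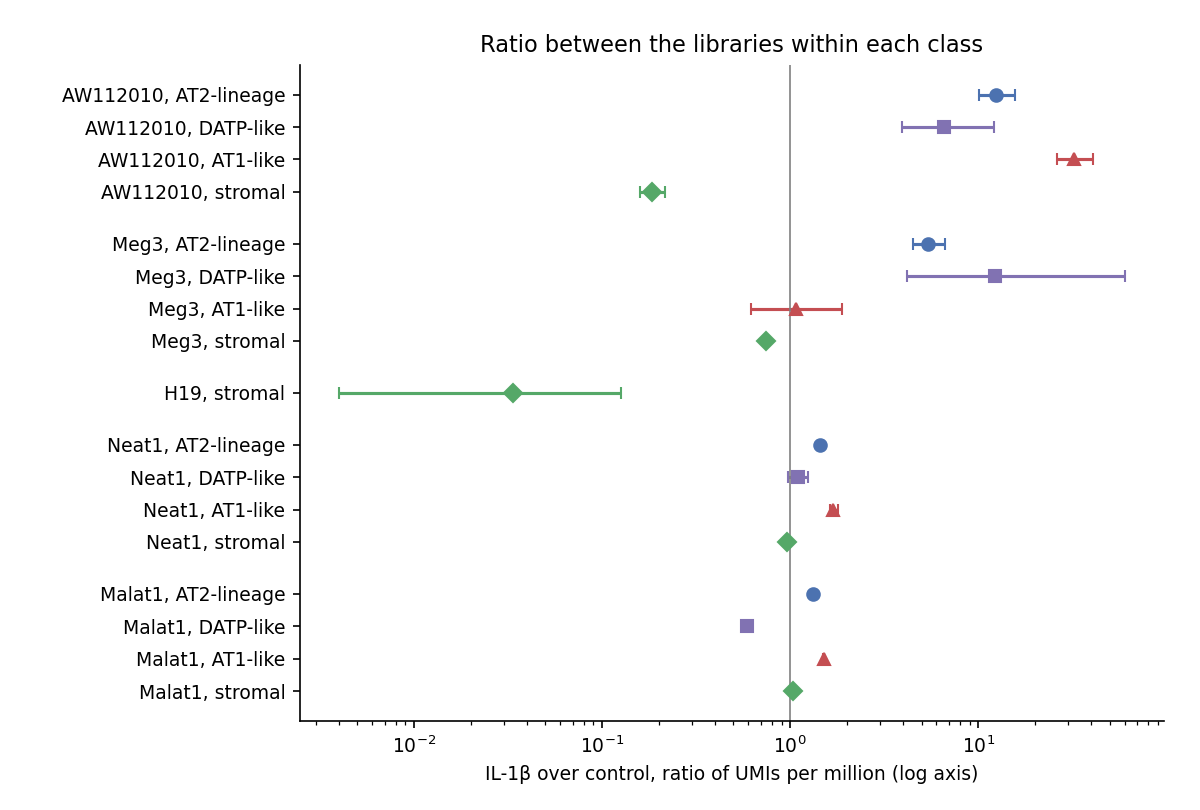
Ratio of the CPM in IL-1β over control (log axis) for each lncRNA and cell class, with exact conditional 95% intervals; the vertical line marks a ratio of 1, and H19 is drawn for the stroma, where it had 85 UMIs. AW112010 lies at 32.4 in AT1-like and at 0.185 in stromal cells, while Neat1 and Malat1 lie between 0.593 and 1.70 in every class.

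Neat1 was present in nearly every cell and was higher in IL-1β AT2-lineage and AT1-like cells. Its level went from 477 CPM (465 to 489) to 693 (681 to 705) in AT2-lineage cells, a ratio of 1.45 (1.41 to 1.5). In AT1-like cells it went from 507 (484 to 530.0) to 864 (839 to 888), a ratio of 1.70 (1.62 to 1.80). DATP-like cells had 614 (546 to 689) and 677 (655 to 700), a ratio of 1.10 (0.978 to 1.25), and stromal cells 614 (600.3 to 627) and 591 (575 to 606), a ratio of 0.962 (0.930 to 0.996). The stromal direction depended on how cells were weighted, since the ratio was 1.21 as a mean over cells and 1.18 after thinning. IL-1β AT1-like cells stood alone at the top and control AT1-like and AT2-lineage cells overlapped at the bottom. Between them the wide interval of the control DATP-like cells overlapped those of IL-1β AT2-lineage and DATP-like cells and of the stroma of either library. In AT2-lineage cells 82.5% of all genes had a smaller ratio than Neat1, and in AT1-like cells 93.4%.

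By cluster, Neat1 in E1, E2 and E4 was 1.80 (1.73 to 1.86), 1.29 (1.24 to 1.34) and 1.30 (1.25 to 1.36) times its level of 474 CPM in E0. The highest levels were 870.2 CPM in E5 and 851 in E1, both of the IL-1β library, followed by 709.9 in the control fibroblasts of S3. The lowest was 312 CPM (290.0 to 336) in the contractile cluster S9, where 74.8% of cells had a UMI. Most paraspeckle proteins stayed within 2-fold, as did most genes of each class. Of 15 listed, 1 of 15 in AT2-lineage cells, Zc3h6, was at least 2-fold higher (2.14, 1.60 to 2.89). In DATP-like cells 1 of 12, Cpsf6, was lower (0.471), while 0 of 14 in AT1-like and 0 of 15 in stromal cells passed either mark. Of all genes, 6.62% were higher and 2.56% lower in AT2-lineage cells and 7.73% and 7.76% in DATP-like cells. The shares were 4.14% and 2.54% in AT1-like and 3.61% and 10.2% in stromal cells, and nothing is read from the contrast. Sfpq and Nono, core paraspeckle proteins, had ratios of 1.24 (1.16 to 1.34) and 1.11 (1.02 to 1.2) in AT2-lineage cells and 1.18 and 1.04 in AT1-like cells. Genes most like Neat1 over the clusters were Usp3 (r = 0.919), AW112010 (0.912), Cd47 (0.898), Ubn2 (0.892) and Eci2 (0.886). Frmd8os, which starts 0.145 kb past Neat1 on the other strand, had 53 UMIs in all.

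Malat1 was the most abundant lncRNA by UMIs in every class and was highest in AT1-like cells. Its level was 19071 CPM in control and 25374 in IL-1β AT2-lineage cells, a ratio of 1.33 (1.32 to 1.34). AT1-like cells had 48656 and 73585, a ratio of 1.51 (1.5 to 1.52), DATP-like cells 44508 from 32 cells and 26402, a ratio of 0.593, and stromal cells 38089.9 and 39118, a ratio of 1.03. The counting intervals of the 8 levels did not overlap. The AT2-lineage direction was not stable, since another random seed for the clustering gave 0.942 and leaving out the 5% of cells with the highest doublet scores gave 1.01. By cluster, E2 and E4 were at 0.930 and 1.02 times E0, and E1 alone was at 2.04 (2.03 to 2.05). In both libraries AT1-like cells had more Malat1 than AT2-lineage cells, 2.55 times (2.54 to 2.57) in control and 2.90 times (2.89 to 2.91) in IL-1β organoids. In stromal cells the sign of the small difference turned with 2 alternatives, to 0.997 and 0.994, while the ratio was 1.34 as a mean over cells and 1.33 after thinning.

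Malat1, a nuclear RNA, also varied with the depth of a cell and, in some groups of cells, with its mitochondrial share. In IL-1β stromal cells its level went from 106984 CPM in the shallowest 20% of cells, with a median of 6096 UMIs, to 21111 in the deepest 20%, with 40426. Control stromal cells went from 61550.2 to 29057 CPM, and control AT1-like cells from 108391 to 28185. The Spearman correlation with depth was negative in every class, from -0.10 in IL-1β DATP-like to -0.61 in IL-1β stromal cells, and across cells these values are descriptions. The mitochondrial share of UMIs had a median of 4.30% in control and 6.52% in IL-1β stroma, and from the 20% of cells lowest to the 20% highest in that share Malat1 went from 24862 to 88818 CPM in the IL-1β stroma and from 36933 to 47482 in the control. Over the same groups, Malat1 in AT1-like cells went from 66249.8 to 105877 CPM with IL-1β and from 55431 down to 39333 in control. AT2-lineage cells went from 27846 to 29369 CPM with IL-1β and from 17951 to 22523 in control. The part of depth and mitochondrial share in the differences between the libraries was not tested. In AT2-lineage cells the 20% groups were cut within each library and so differed in depth. The shallowest had 40843 CPM at a median of 6070.0 UMIs with IL-1β and 25872 at 6633 in control. The deepest had 18389 at 18596 UMIs with IL-1β and 14319 at 23273 in control. Among groups nearer in depth, IL-1β cells had 26268 at 11660.0 UMIs and 22781 at 14225.5. Control cells had 25267 at 11148.5 UMIs and 21131 at 13964.5.

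**Figure D5:**
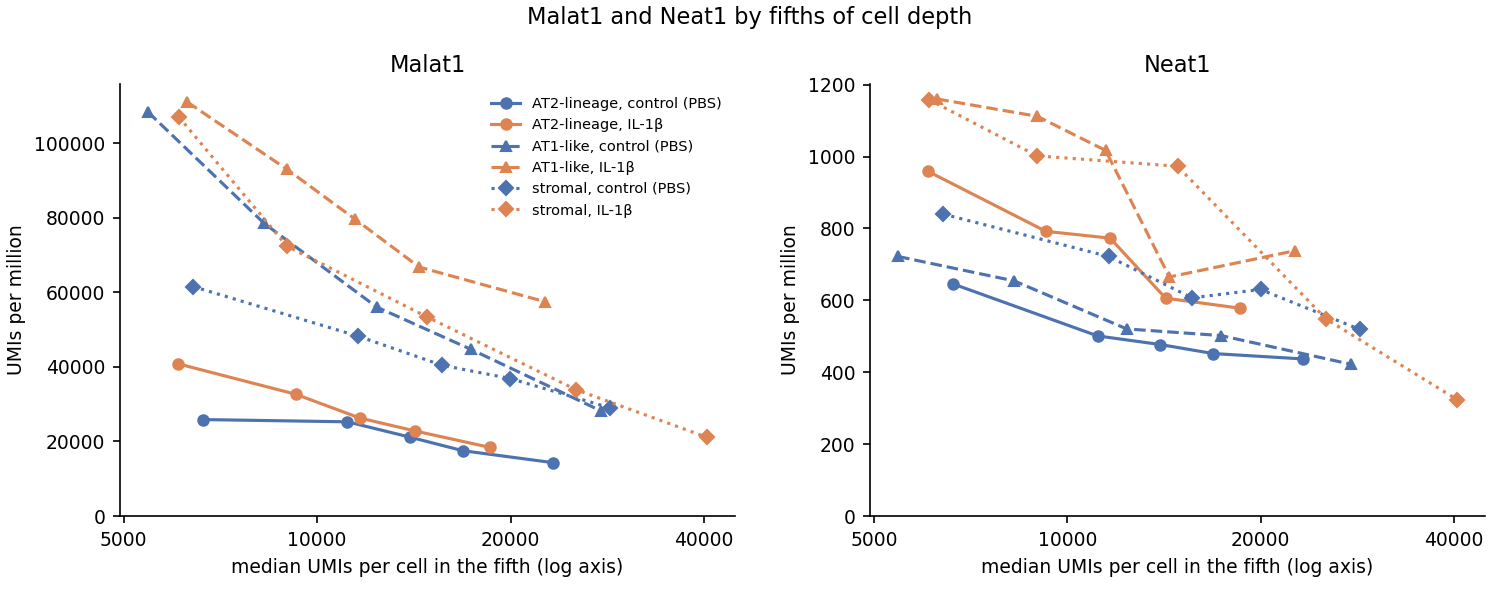
Malat1 (left) and Neat1 (right), CPM on linear axes, in 5 equal groups of cells ordered by UMIs per cell, plotted at the median depth of the group (log axis); circles with solid lines are AT2-lineage, triangles with dashed lines AT1-like and diamonds with dotted lines stromal cells, blue for control and orange for IL-1β. Malat1 falls with depth along each line, in IL-1β stroma from 106984 to 21111, and Neat1 goes there from 1158 to 324.

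Neat1 followed depth less closely. In IL-1β stromal cells it went from 1158 CPM in the shallowest to 324 in the deepest 20%, and its correlation with the mitochondrial share was 0.50 there and between 0.08 and 0.32 elsewhere. In AT2-lineage cells it was 646 CPM in the shallowest and 437 in the deepest 20% of the control, against 959 and 578 in the IL-1β library. At median depths of 13964.5 UMIs in control and 14225.5 in IL-1β cells it was 477 and 606. Within cells thinned to the same depth, Neat1 and Malat1 were related with Spearman values of 0.11 to 0.37 in the 7 class and library groups measured. AW112010 and Meg3 were found together in IL-1β AT2-lineage cells about as often as their single shares would give, in 1.18% against 1.36%.

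Splicing factors of nuclear speckles, where Malat1 gathers, stayed within 2-fold, as did most genes. Of 20 listed genes 0 passed either mark in any of the 4 classes. Of all genes, 6.62% were higher and 2.56% lower in AT2-lineage cells and 7.73% and 7.76% in DATP-like cells. The shares were 4.14% and 2.54% in AT1-like and 3.61% and 10.2% in stromal cells, so a short list can stay within 2-fold in any case. Son and Srrm2, scaffold proteins of speckles, had ratios of 1.16 and 1.05 in AT2-lineage cells, and Srsf3 had 0.719 there, 0.611 in AT1-like and 0.588 in stromal cells. Immediate early and heat shock genes, which respond to dissociation, had 3 higher and 1 lower of 20 in AT2-lineage cells, 8 higher and 2 lower of 17 in DATP-like cells, 2 and 1 of 18 in AT1-like cells and 1 and 4 of 20 in stromal cells, and their part in the lncRNA differences was not tested. Malat1 resembled Ift43 (r = 0.933), Anxa5 (0.930), Ttc14 (0.925), Rab2a (0.923) and Ltbp3 (0.921) over the clusters.

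Other lncRNAs were taken from a list. Of 64 listed, 36 were in the files, and they summed to 958 and 992 CPM in AT2-lineage cells, 951 and 929 in AT1-like cells and 1283 and 1205 in stromal cells. Among those with at least 100 UMIs, 2 of 16 in AT2-lineage cells were at least 2-fold higher, Ptgs2os2 and Dubr, and 1, Snhg9, was lower. Of 9 in DATP-like cells Snhg11 was higher and Snhg6 and Snhg12 were lower, and of 13 in AT1-like cells Snhg9 alone was lower. In stromal cells Snhg11 and Ptgs2os2 were higher and Mir143hg was lower of 21. Of all genes, 6.62% were higher and 2.56% lower in AT2-lineage cells, and 7.73% and 7.76% in DATP-like cells. The shares were 4.14% and 2.54% in AT1-like and 3.61% and 10.2% in stromal cells, and nothing is read from the contrast with these short lists. Ptgs2os2, an antisense neighbour of the prostaglandin synthase gene Ptgs2, went from 3.10 to 27.7 CPM in the stroma, a ratio of 8.94 (6.41 to 12.7), and Snhg11, a small nucleolar RNA host, from 27.5 to 72.8 CPM, a ratio of 2.64 (2.32 to 3.01). Snhg18 had 0.630 (0.591 to 0.670) in the stroma and 0.779 in AT2-lineage cells, and Gm42418, which carries ribosomal RNA sequence, 1.28 and 1.03.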

How the data were processed

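Droplet libraries of control (PBS) and IL-1β organoids were analysed, 1 per condition. The deposited matrices hold raw UMI counts per gene and barcode, produced by the authors using Cell Ranger and the GRCm38 genome (the submitters' processing notes also list mm9 and Scanpy 1.3.6). The cutoffs in the methods were applied here: more than 500 and fewer than 7000 genes, more than 2000 UMIs. Doublet scores over 0.7 were removed as described there, which took out few cells, so doublets remain possible. Counts scaled to 10000 per cell were clustered without the 5 lncRNAs (scanpy 1.11.5, leidenalg 0.10.2, 50 principal components, 15 neighbors, resolution 1.0), first all cells and then the epithelial cells alone, and clusters were named from markers.

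UMIs were summed per class and library and divided by the class total (counts per 1000000 UMIs, CPM). Exact Poisson, conditional binomial and Clopper-Pearson intervals (95%, scipy 1.17.1) cover counting error only. A single library per condition allows no test, and cells were not treated as replicates. For shares, cells were also thinned to 4000 UMIs. Genes with at least 100 UMIs over both libraries in a class gave the background of 2-fold differences. The limit set by a count of 0 was placed at 3 counts. The interval code was tested on simulated data.

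Named genes were the 5 lncRNAs, the 5 most alike genes of each (at least 50 CPM in 1 cluster), nearest neighbours, up to 4 genes of each list with the most UMIs, and genes counted in groups of 5 or fewer. Mirg, Col1a1 and other genes of the Meg3-high cells were chosen after values were seen. The lncRNAs, lists and markers were chosen with earlier results of these data known. Depth was 33965848 and 41220175 UMIs. In vivo libraries were not analysed here. The values of 1 neighbouring gene are not reported here.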

Additional observations from a re-analysis of the deposited data

Results flagged for a closer look

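AW112010, Meg3 and Neat1 stood out because their ratios of IL-1β over control lay on opposite sides of 1 in epithelium and stroma. The flag set AT2-lineage and AT1-like cells against the stroma of the same 2 libraries, and these differences were not tested. DATP-like cells were not part of it. There Malat1 had 0.593, from 32 control cells, against 1.33 in AT2-lineage cells, and 1.16 with separate clustering. For AW112010 the ratio was 12.5 in AT2-lineage and 32.4 in AT1-like cells against 0.185 in stromal cells. For Meg3 it was 5.44 in AT2-lineage cells against 0.748 in the stroma. For Neat1 it was 1.45 in AT2-lineage and 1.70 in AT1-like cells against 0.962 in the stroma, and the stromal value turned to 1.21 as a mean over cells and to 1.18 after thinning, so the opposite direction of Neat1 depended on the weighting.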

How the results depend on the processing

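No paired analysis was possible because each condition had 1 library. In AT2-lineage cells the AW112010 ratio of 12.5 moved to 9.81 without the 5% of cells with the highest doublet scores, 8.44 at resolution 2.0, 7.50 with random seed 1, 15.6 as a mean of cells, 22.3 in thinned cells and 7.44 in cells below the median of stromal gene UMIs. Under the same first 3 settings Neat1 moved from 1.45 to 1.28, 1.33 and 1.29, with separate clustering to 1.37, and to 1.33 both without surfactant, mitochondrial and ribosomal protein genes in the totals and in the cells below that median. Malat1 moved from 1.33 to 1.41 with every barcode, 1.01 without the top 5%, 1.36 at resolution 0.5, 1.07 at resolution 2.0, 1.29 with Louvain, 1.28 with separate clustering, 1.21 without the abundant genes, 1.36 as a mean of cells and thinned, and 1.07 below that median, and turned to 0.942 with random seed 1. In the stroma Meg3 moved from 0.748 to 0.769 at resolution 2.0, with Louvain and with separate clustering, 0.724 without the abundant genes, 0.968 as a mean of cells and 0.979 thinned. Malat1 turned to 1.16 in DATP-like cells with separate clustering and to 0.997 and 0.994 in the stroma without the top 5% and without the abundant genes, and Neat1 turned there to 1.21 and 1.18 as a mean of cells and thinned. The AW112010 ratio in DATP-like cells ranged from 3.72 to 21.4 over 9 alternatives, and 3 others left no control DATP-like cells and gave no value. In AT2-lineage cells the Meg3 ratio of 5.44 was 8.60 without the top 5%, 7.32 with random seed 1, 7.12 below the median and 6.70 thinned, and in the stroma Malat1 was 1.34 as a mean of cells and 1.33 thinned. The causes were not tested.

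Of 191 alternative values, 31 for the AT2-lineage ratios of AW112010, Neat1 and Malat1 and the stromal ratios of Meg3 and H19, all of H19 among them, and 95 of the others moved by less than the counting interval or, for counts, less than 1.5 times. With a minimum of 20 UMIs the share of genes past 2-fold was 4.38% for lower in AT2-lineage cells, and 6.25% and 4.83% for higher and lower in AT1-like cells. The split by stromal UMIs, the shared barcodes, the limit of 5 UMIs and the longer NF-κB motif were chosen after seeing the data. H19 and control DATP-like values rest on few cells. No ratio was recomputed without the cells of high mitochondrial share, which were more marked in the IL-1β stroma than in the control stroma.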
